A study of Mus musculus with 14 samples.

Results

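Germinal centers are the sites in lymphoid follicles where B cells divide, mutate and switch their immunoglobulin genes and are selected with help from follicular helper T cells. The values of 8 genes known from these cells, S1pr2, Mybl1, Nuggc, Gcsam, Rgs13, Fas, Cxcr5 and Il21, were followed across 14 whole spleens of mice with psoriasis-like skin inflammation. They were taken by gene symbol from the 22116 named entries of a table of read counts, and all 8 were among the 15159 genes with enough counts to be tested.

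All mice were female wild-type BALB/c animals of 6 to 8 weeks. The control group (n = 3) had petrolatum, the vehicle, on the back and both ears. The imiquimod-dorsal group (n = 4) had 5% imiquimod cream on the back once a day for 5 days, and the imiquimod-ear group (n = 4) had the same cream on the ear for as long. Imiquimod is a Toll-like receptor agonist that induces psoriasis-like skin lesions in mice. The IL-23-ear group (n = 3) had 1 µg of recombinant IL-23, a cytokine that maintains type 17 T cells, injected into the skin of each ear, with 4 injections over 7 days. The labels name no mice with a vehicle injection, so this group is also set against petrolatum. Libraries are named by group and the replicate number in their label. The labels call them biological replicates without saying that each is a separate animal, so p-values measure the spread between these libraries.

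Within a germinal center, B cells divide in the dark zone, are selected in the light zone and are held in place by receptors that oppose outward migration. Follicular helper T cells enter follicles through CXCR5, the receptor for the chemokine CXCL13, and feed the reaction with interleukin 21 and CD40 ligand. Mouse spleen is known to form germinal centers in its white pulp after immune stimulation. In a whole organ, fewer cells of a type and less RNA per cell cannot be told apart, and every level below is relative to the other RNA of its library.

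The RefSeq promoter table (build GRCm38.p6) held 5 of the 8 members: S1pr2, Gcsam, Rgs13, Fas and Il21. Sequences are shown for 3 of them that moved in different ways below: S1pr2, which was higher with ear imiquimod, and Gcsam and Rgs13, which were lower by similar amounts with dorsal imiquimod. Each is the 250 bases before the start of transcription, 5′ to 3′ on the gene's strand, with capitals for matches on either strand to the E-box CANNTG, the core bound by E proteins of lymphocytes, to TTCNNNGAA, the spaced element bound by STAT factors, or to the octamer ATGCAAAT. These motifs do not contain one another.
S1pr2 (chr9:20976794-20977043, minus strand): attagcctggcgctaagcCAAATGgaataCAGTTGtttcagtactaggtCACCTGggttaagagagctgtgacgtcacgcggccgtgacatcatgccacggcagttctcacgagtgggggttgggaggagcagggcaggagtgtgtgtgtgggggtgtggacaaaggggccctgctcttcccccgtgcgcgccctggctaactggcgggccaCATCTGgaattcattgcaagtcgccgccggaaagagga
Gcsam (chr16:45610190-45610439, plus strand): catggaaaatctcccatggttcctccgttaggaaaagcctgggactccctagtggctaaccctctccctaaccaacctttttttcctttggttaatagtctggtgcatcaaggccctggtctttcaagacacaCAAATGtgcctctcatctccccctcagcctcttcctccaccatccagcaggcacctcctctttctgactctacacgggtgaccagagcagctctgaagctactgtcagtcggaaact
Rgs13 (chr1:144177373-144177622, minus strand): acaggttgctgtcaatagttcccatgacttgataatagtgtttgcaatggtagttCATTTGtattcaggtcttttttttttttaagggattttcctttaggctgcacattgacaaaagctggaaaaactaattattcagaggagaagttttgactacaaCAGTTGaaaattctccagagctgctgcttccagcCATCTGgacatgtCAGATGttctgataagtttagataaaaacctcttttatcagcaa

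The S1pr2 and Rgs13 windows each held 4 E-boxes and the Gcsam window 1, and 66.2% of the 32851 promoters in the table held at least 1. None of these 3 windows held the spaced STAT element or the octamer, which were present in 7.02% and 1.6% of all promoters. The Fas window held 1 E-box and 1 STAT element, and the Il21 window held 2 E-boxes. These counts describe letters in a window and were not tested against expression.

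Each library held 28354674 to 40289411 counts over named genes, and replicates of a group differed by more than sampling noise (chi-square per degree of freedom from 23.6 to 138). A library with 0 counts of a gene may hold up to 3 counts of it, or 0.0754 to 0.0976 counts per 1000000 (CPM), for counting error only. CPM values were scaled by the trimmed mean of M-values (TMM). Genes were tested with edgeR's quasi-likelihood test in 1 fit of all 14 libraries, and each adjusted p below is from it, with a threshold of 0.05 after Benjamini and Hochberg over the 15159 genes.

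Ear imiquimod was set against vehicle first. S1pr2, Mybl1 and Nuggc were higher, by 2.96-, 5.84- and 7.39-fold, Cxcr5 was at 0.74 of its control level, and Gcsam, Rgs13, Fas and Il21 did not pass. Thus 4 of the 8 members were called, where 21.2% of all tested genes were, and 3 were higher, where 14.3% of all genes were. The 1 that was lower compares with 6.98% of all genes. The members' median log2 fold change was 1.02, against 0.02 over all genes tested.

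S1pr2 (ENSMUSG00000043895; GRCm39 chromosome 9, 20873657 to 20914139, minus strand) encodes a sphingosine-1-phosphate receptor that keeps germinal center B cells clustered. It was at 7.97, 9.47 and 6.34 CPM in controls 2, 4 and 5. In imiquimod-ear 1, 3, 4 and 5 it was at 22.3, 45.6, 13.8 and 12.1 CPM. All 4 treated libraries lay above every control, with imiquimod-ear 3 highest and imiquimod-ear 1 next. The log2 fold change was 1.57 ± 0.39 (SE, adjusted p = 0.0144). S1pr2 no longer passed when control 2 was left out (1.54, adjusted p = 0.0604) or when control 4 was (1.68, adjusted p = 0.0505). Without imiquimod-ear 3 the value was 0.99 (adjusted p = 0.0161).

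Mybl1 (ENSMUSG00000025912; chromosome 1, 9737632 to 9770628, minus strand) encodes A-MYB, a transcription factor of dividing germinal center B cells and of spermatocytes. It was at 2.44, 2.66 and 2.30 CPM in controls 2, 4 and 5 and at 11.9, 32.4, 7.09 and 6.39 CPM in imiquimod-ear 1, 3, 4 and 5. Imiquimod-ear 3 was again highest, and the groups did not overlap. The log2 fold change was 2.55 ± 0.55 (adjusted p = 0.00838). Without imiquimod-ear 3 it was 1.74 and still passed (adjusted p = 0.00888).

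Nuggc (ENSMUSG00000061356; chromosome 14, 65835995 to 65885980, plus strand) encodes a nuclear GTPase known from germinal center B cells. Its levels were 0.961, 1.12 and 0.233 CPM in controls 2, 4 and 5, from 9 to 37 counts. They were 6.84, 10.1, 2.75 and 2.99 CPM in imiquimod-ear 1, 3, 4 and 5. Again no treated library reached down to the controls, and the order of imiquimod-ear 3, then 1, then the other 2 was as for S1pr2 and Mybl1. The change was 2.88 ± 0.60 on the log2 scale (adjusted p = 0.00634), and 2.42 without imiquimod-ear 3 (adjusted p = 0.0170).

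**Figure D1:**
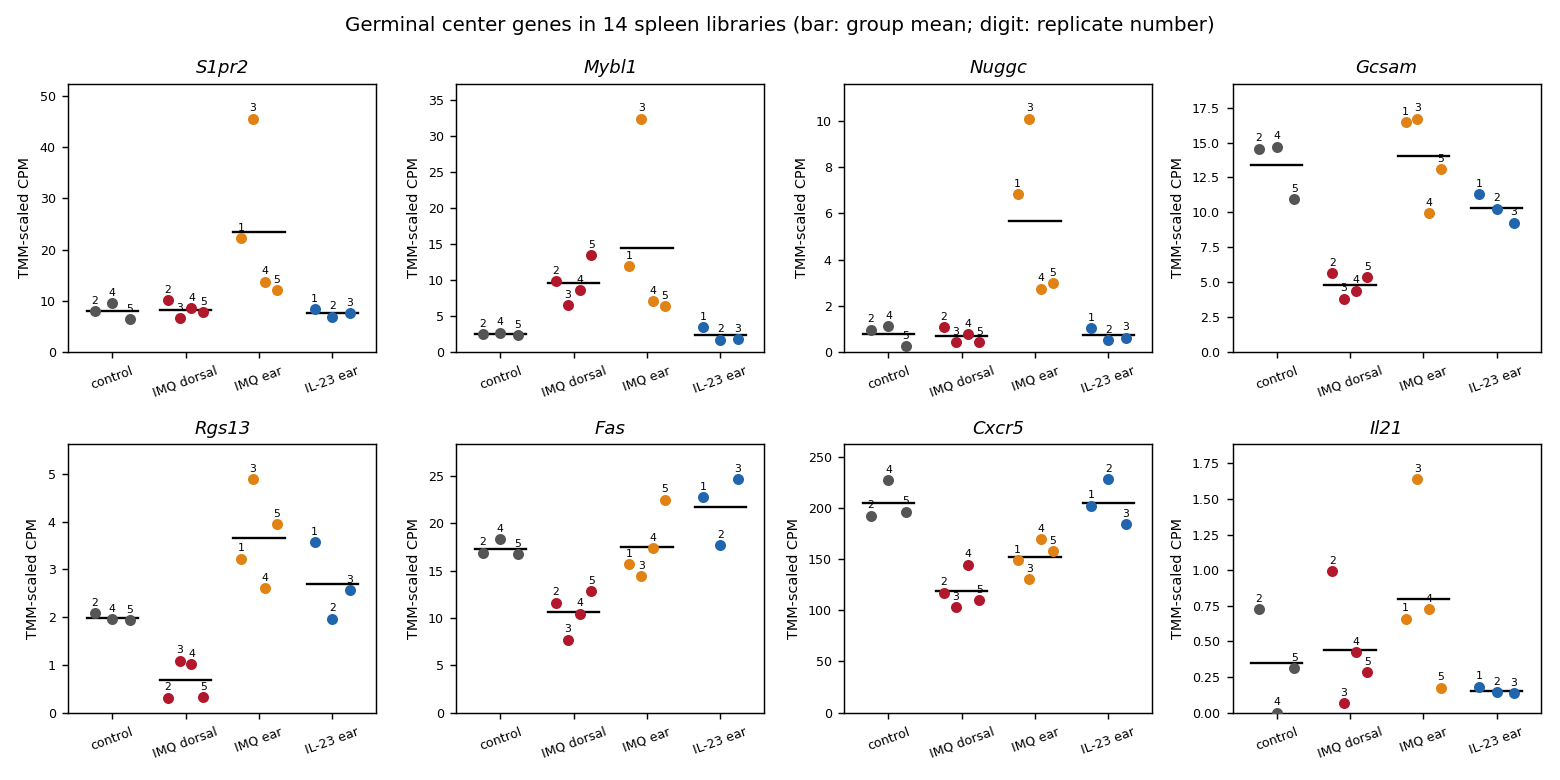
TMM-scaled CPM of the 8 germinal center genes (y axis, linear, from 0) in each library (points, with replicate numbers) by group (x axis; IMQ is imiquimod), with the group mean as a bar. S1pr2, Mybl1 and Nuggc were above every control in all 4 imiquimod-ear libraries, with imiquimod-ear 3 highest, and Gcsam, Rgs13 and Fas were below every control in all 4 imiquimod-dorsal libraries.

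Cxcr5 (ENSMUSG00000047880; chromosome 9, 44423083 to 44473174, minus strand), the follicle-homing receptor of mature B cells and follicular helper T cells, went the other way. It was at 193, 227 and 197 CPM in controls 2, 4 and 5 and at 149, 130.5, 170 and 158 CPM in imiquimod-ear 1, 3, 4 and 5. The groups did not overlap, and imiquimod-ear 3, the highest library for S1pr2, was the lowest of the 4 here. The change of -0.44 ± 0.12 passed (adjusted p = 0.0211), but not without control 4 (-0.39, adjusted p = 0.0879) or when libraries were scaled to B cell marker counts (-0.32, adjusted p = 0.0554).

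Rgs13 (ENSMUSG00000051079; chromosome 1, 144014392 to 144053110, minus strand), a regulator that dampens G protein signals of chemokine receptors and is also known from mast cells, was at 1.94 to 2.08 CPM in the controls. It was at 3.22, 4.88, 2.61 and 3.95 CPM in imiquimod-ear 1, 3, 4 and 5. All 4 lay above the controls, but the difference of 0.88 ± 0.38 did not pass (adjusted p = 0.118). Counting Rgs13, the groups did not overlap for 5 members, as for 24.6% of all genes.

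Gcsam (ENSMUSG00000022659; chromosome 16, 45430743 to 45443230, plus strand), which encodes a signaling adaptor of germinal center B cells that restrains their motility, overlapped between the groups. It was at 14.6, 14.7 and 11.0 CPM in controls 2, 4 and 5 and at 16.5, 16.7, 9.97 and 13.1 CPM in imiquimod-ear 1, 3, 4 and 5. Its log2 difference was 0.07, with a 95% interval of -0.33 to 0.47 (adjusted p = 0.821). Fas (ENSMUSG00000024778; chromosome 19, 34268001 to 34305173, plus strand), the death receptor found on germinal center B cells and on many activated cells, was at 15.7, 14.4, 17.4 and 22.5 CPM in those libraries. It differed by 0.01, with an interval of -0.37 to 0.40 (adjusted p = 0.961).

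Dorsal imiquimod was set against the same vehicle libraries. Gcsam and Rgs13 were at 0.36 and 0.34 of the control level, Fas and Cxcr5 at 0.61 and 0.58, and Mybl1 was 3.88-fold higher. S1pr2, Nuggc and Il21 did not pass. These are 5 of 8 members called, close to the 59.8% of all genes called in this comparison, so the number of calls does not set the members apart. In direction, 4 were lower, where 27.6% of all genes were, and 1 was higher, where 32.3% were. The median over the members was -0.44, against 0.00 over all genes. The 5 called members did not overlap between the groups, as 61.1% of all genes did not.

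Gcsam was at 5.65, 3.81, 4.39 and 5.38 CPM in imiquimod-dorsal 2, 3, 4 and 5, each below the lowest control. Its log2 fold change was -1.48 ± 0.19 (adjusted p = 2.00e-05). Rgs13 was at 0.312, 1.09, 1.01 and 0.316 CPM in the same libraries, from 10 to 34 counts, and changed by -1.55 ± 0.40 (adjusted p = 0.00440). Both genes thus fell in all 4 dorsal libraries, although imiquimod-dorsal 2 and 5 were lowest for Rgs13 and highest for Gcsam.

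Fas was at 16.9, 18.4 and 16.8 CPM in controls 2, 4 and 5 and at 11.6, 7.72, 10.5 and 12.8 CPM in imiquimod-dorsal 2, 3, 4 and 5. The groups did not overlap, and the change was -0.70 ± 0.18 (adjusted p = 0.00389). Cxcr5 was at 117, 103, 145 and 110.0 CPM in those libraries and changed by -0.79 ± 0.12 (adjusted p = 7.85e-05). It too had no dorsal library within the range of the controls.

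Mybl1 was at 9.82, 6.47, 8.55 and 13.5 CPM in imiquimod-dorsal 2, 3, 4 and 5, all above the controls, a log2 fold change of 1.96 ± 0.54 (adjusted p = 0.00775). S1pr2 was at 6.56 to 10.1 CPM there and overlapped the controls, with a difference of 0.06 and an interval of -0.76 to 0.87 (adjusted p = 0.908). Nuggc, at 0.411 to 1.08 CPM, also overlapped them, with -0.18 and an interval of -1.47 to 1.11 (adjusted p = 0.815). Mybl1 was therefore the one member of the 3 raised by ear imiquimod that was called higher with dorsal imiquimod as well. Both comparisons share the 3 control libraries.

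**Figure D2:**
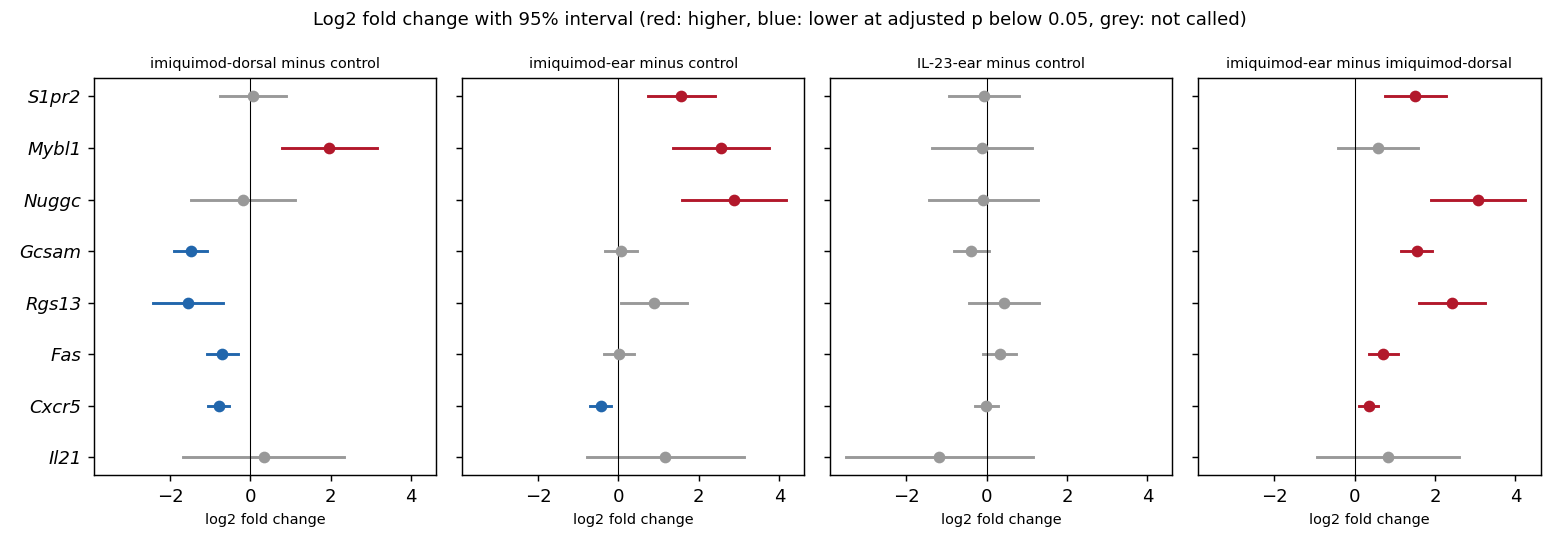
Log2 fold change (x axis) of the 8 members (y axis) in 4 comparisons, with approximate 95% intervals from the edgeR fit as lines. Red points passed as higher and blue points as lower at an adjusted p below 0.05, and grey points did not pass; 6 members were higher with ear than with dorsal imiquimod and none was called with IL-23.

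The 2 imiquimod groups were compared directly, which tests whether the site of treatment went with different levels. Treated area, and any difference in the amount of cream, go with the site and cannot be told apart from it. Of the 8 members 6 were higher with ear than with dorsal treatment and none was lower, where 47.7% of all genes were called and 23.3% were higher. The median over the members was 1.17, against 0.02 over all genes. Nuggc differed most, by 3.06 ± 0.54 (adjusted p = 0.000518), followed by Rgs13 with 2.43 ± 0.38 (adjusted p = 0.000182). Gcsam differed by 1.55 ± 0.18 (adjusted p = 1.89e-05), S1pr2 by 1.51 ± 0.35 (adjusted p = 0.00362) and Fas by 0.72 ± 0.17 (adjusted p = 0.00324).

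For these 5 genes every ear library lay above every dorsal library. Cxcr5 was higher by 0.35 ± 0.11 (adjusted p = 0.0194) with groups that overlapped, since imiquimod-dorsal 4 was above imiquimod-ear 3. It did not pass in fits that left out imiquimod-dorsal 3 (0.29), imiquimod-dorsal 5 (0.32) or imiquimod-ear 4 (0.29), with adjusted p of 0.0618, 0.0549 and 0.0600. Mybl1 did not pass (0.59 ± 0.46, adjusted p = 0.309), and its sign turned without imiquimod-ear 3 (-0.16, adjusted p = 0.669). Of all genes, 43% did not overlap between the 2 imiquimod groups.

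IL-23 was set against vehicle next. None of the 8 members was called by edgeR's quasi-likelihood test, and none had an unadjusted p below 0.05. DESeq2 and limma-voom called 0 as well. Of all genes, 0.0528% were called here, 0.0462% as higher and 0.0066% as lower. S1pr2 was at 8.30, 6.90 and 7.54 CPM in IL-23-ear 1, 2 and 3, all within the range of the controls. Its difference from control was -0.06, with an interval of -0.93 to 0.81 (adjusted p = 0.981).

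For Mybl1 the interval was -1.34 to 1.14 and for Nuggc it was -1.44 to 1.29, so a log2 difference of 1 in either direction lay inside both. Intervals were narrower for Cxcr5 (-0.28 to 0.27), Fas (-0.08 to 0.73) and Gcsam (-0.82 to 0.05). Rgs13 was at 3.57, 1.97 and 2.56 CPM in IL-23-ear 1, 2 and 3 and differed by 0.44 ± 0.41 (adjusted p = 0.822). Gcsam, at 9.27 to 11.3 CPM, was the member with the smallest p here (unadjusted 0.0785, adjusted p = 0.648).

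Against ear imiquimod, IL-23-ear libraries were lower in Nuggc (-2.96 ± 0.60, adjusted p = 0.00650), Mybl1 (-2.65 ± 0.56, adjusted p = 0.00831) and S1pr2 (-1.63 ± 0.39, adjusted p = 0.0149). They were higher in Cxcr5 (0.43 ± 0.12, adjusted p = 0.0267). These are 4 of 8 members, where 17.3% of all genes were called. As lower there were 3, against 10.2% of all genes, and as higher 1, against 7.05%. The agents, their routes and the days of treatment all differ between these groups and cannot be told apart. S1pr2 lost its call without IL-23-ear 2 (-1.55, adjusted p = 0.0529) or IL-23-ear 3 (-1.6, adjusted p = 0.0613), and Mybl1 was at -1.86 without imiquimod-ear 3. Cxcr5 lost it without imiquimod-ear 1, imiquimod-ear 3, IL-23-ear 1 or IL-23-ear 2 (adjusted p from 0.0590 to 0.0898) and when scaled to B cell marker counts (0.29, adjusted p = 0.0751).

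Il21 (ENSMUSG00000027718; chromosome 3, 37276908 to 37286785, minus strand), the cytokine by which follicular helper T cells drive germinal center B cells, had few counts. Controls 2, 4 and 5 held 28, 0 and 12 counts, and imiquimod-dorsal 2, 3, 4 and 5 held 35, 2, 13 and 9. Imiquimod-ear 1, 3, 4 and 5 held 25, 57, 26 and 7, and IL-23-ear 1, 2 and 3 held 7, 5 and 5. The highest library was again imiquimod-ear 3, but the ear libraries overlapped the controls, as did those of the other groups.

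No comparison of Il21 passed, and its intervals were wide: -0.79 to 3.12 for ear imiquimod against control and -1.66 to 2.33 for dorsal imiquimod against control. Its lowest unadjusted p was 0.0365, for IL-23-ear against imiquimod-ear (-2.33 ± 1.01, adjusted p = 0.123). Even numbers made up 58.2% to 60.9% of a library's counts from 1 to 10 and 49.1% to 50.7% of those from 11 to 1000, so a count this low may not be that many fragments. Exons of Gm12534 on the other strand share 469 bases with those of Il21, exons of Mrpl4 share 122 bases with S1pr2 and exons of Bcl9l share 118 with Cxcr5. The library kit does not mark strand, so reads of such stretches could come from either gene.

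Per kilobase of canonical transcript, the members spanned a wide range of levels. In the controls Cxcr5 was highest at 78.0 ± 7.22 CPM per kb (SD, n = 3), then Fas at 11.7 ± 0.60 and Gcsam at 3.92 ± 0.62. Rgs13 (1.27 ± 0.05) and S1pr2 (1.24 ± 0.24) did not differ beyond their spread by this length. All exons of S1pr2 together span 10170 bases, against 6394 in its canonical transcript, and those of Rgs13 1655 against 1564. The likeness of these 2 genes therefore depends on the length used. Mybl1 (0.495 ± 0.036), Nuggc (0.281 ± 0.17) and Il21 (0.113 ± 0.12) were lowest, and Nuggc overlapped Il21 within its SD. With ear imiquimod Nuggc was at 2.07 ± 1.28 and Mybl1 at 2.90 ± 2.46 CPM per kb (n = 4), and neither differed beyond its spread from Rgs13 at 2.34 ± 0.63.

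Other genes of germinal center B cells came from a list of 13, all tested. With ear imiquimod 5 were higher, 2 were lower and 6 did not pass, where 14.3% of all genes were higher and 6.98% lower. The median of the list was 0.01, against 0.02 over all genes. Eaf2, a regulator of transcript elongation, went from 9.05 ± 1.13 CPM (SD, n = 3) to 58.8 ± 24.6 (n = 4), a log2 fold change of 2.70 ± 0.33 (adjusted p = 0.00101). Mef2b, a transcription factor that activates Bcl6, changed by 2.13 ± 0.52 (adjusted p = 0.0140). Eaf2 and Mef2b had the same highest library as S1pr2, Mybl1 and Nuggc, namely imiquimod-ear 3. This was not particular to germinal center genes. Among the ear libraries, imiquimod-ear 3 also had the highest sums of plasma cell markers (4712 CPM), cell cycle markers (1984 CPM) and the repair genes below (591 CPM). Its sum of T cell markers was the lowest of the ear libraries (704 CPM).

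With dorsal imiquimod 2 of these 13 genes were higher, 6 were lower and 5 did not pass, with a median of -0.11. As 59.8% of all genes were called in this comparison, the number of calls does not set this list apart. The smallest adjusted p were those of Arhgef1 (-0.83 ± 0.10, adjusted p = 1.51e-05), which acts downstream of S1PR2 on RhoA, Klhl6 (-0.66 ± 0.12, adjusted p = 0.000253) and the DNA glycosylase gene Neil1 (-0.99 ± 0.18, adjusted p = 0.000305). Bcl6, the master regulator of the germinal center program, went from 56.6 ± 9.71 to 41.0 ± 6.56 CPM (-0.47, adjusted p = 0.0155) and was at 52.9 ± 5.46 CPM with ear imiquimod (-0.10, adjusted p = 0.676). Bcl6 was picked after its values were seen.

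Between ear and dorsal imiquimod, 8 of the 13 were higher and 1 was lower, where 23.3% of all genes were higher and 24.5% lower. The smallest adjusted p were those of Neil1 (1.62 ± 0.17, adjusted p = 8.11e-06), Eaf2 (2.33 ± 0.29, adjusted p = 4.57e-05) and the ephrin gene Efnb1 (0.59 ± 0.11, adjusted p = 0.000451). With IL-23 none of the 13 was called against vehicle by edgeR, DESeq2 or limma-voom, and 1 had an unadjusted p below 0.05 in edgeR.

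**Figure D3:**
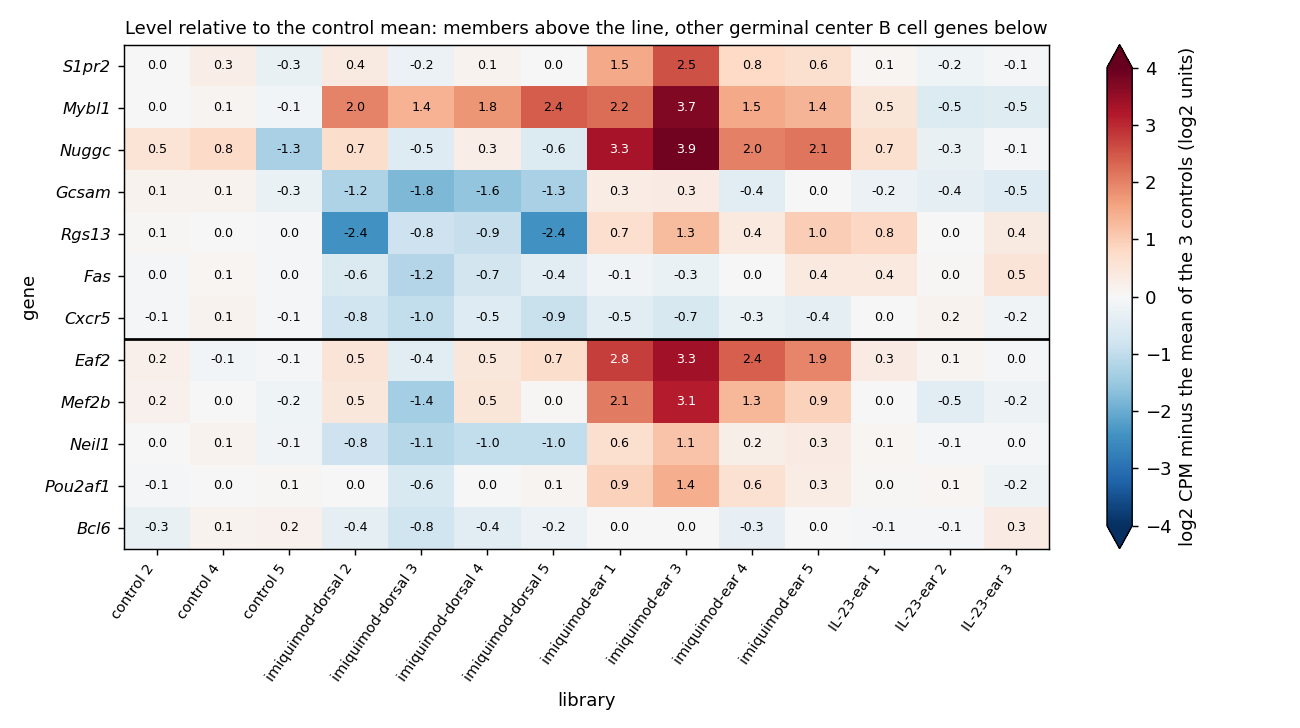
Log2 CPM of 12 genes (rows) in 14 libraries (columns), less the mean of the 3 controls, in log2 units (color and printed digits; the scale is drawn from -4 to 4). Members other than Il21 stand above the black line and 5 other germinal center B cell genes, chosen for the plot after their values were seen, below it. They do not stand for their full list of 13, of which 5 were higher, 2 lower and 6 not called with ear imiquimod. Imiquimod-ear 3 holds the highest value in every row but those of Fas, Cxcr5 and Bcl6.

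Follicular helper T cell genes other than the members were mostly lower with dorsal treatment. Of 13 listed, 12 were tested, since Ascl2 had too few counts. With dorsal imiquimod 11 were lower, where 27.6% of all genes were, and 1 did not pass, with a median of -1.0. Sh2d1a, the SAP adaptor needed for help to B cells, fell by 2.15 ± 0.22 on the log2 scale (adjusted p = 3.21e-06), Cd40lg by 3.17 ± 0.33 (adjusted p = 3.80e-06) and Tox by 1.58 ± 0.16 (adjusted p = 4.02e-06). The 10 general T cell markers fell too, 10 of 10, with a median of -2.47, and their summed level was 229 to 292 CPM against 880 to 1274 in the controls. The part of T cell abundance in the fall of the helper genes was not tested.

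With ear imiquimod 1 of the 12 helper genes was higher, where 14.3% of all genes were, and 11 did not pass, with a median of -0.07. This number of calls does not set the list apart from all genes. Pdcd1, the inhibitory receptor PD-1 that is high on these cells, was at 6.94 to 8.34 CPM in the controls and at 9.15 to 22.4 CPM with ear imiquimod (0.98 ± 0.31, adjusted p = 0.0406). DESeq2 called 1 of the 12 and limma-voom 0. None of the T cell markers was called there by edgeR, DESeq2 or limma-voom, and 1 of 10 had an unadjusted p below 0.05 in edgeR. With IL-23 none of the 12 was called against vehicle by any of the 3 tools, and none had an unadjusted p below 0.05 in edgeR.

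The next list held partners of the members' products and other signaling genes. Icosl and Cxcl12 are among the others and partner no member. Of its 11 genes, 9 were lower with dorsal imiquimod, 1 was higher and 1 was not called. Of all genes, 27.6% were lower and 32.3% higher there. S1pr1, the receptor that draws lymphocytes toward sphingosine-1-phosphate and so opposes S1PR2, went from 219 ± 16.3 to 105 ± 12.1 CPM (-1.06 ± 0.12, adjusted p = 5.82e-06). Il2rg, the common chain of the interleukin 21 receptor, changed by -0.84 ± 0.10 (adjusted p = 1.23e-05) and Fas ligand, listed as Faslg, by -1.58 ± 0.24 (adjusted p = 7.04e-05). With ear imiquimod 3 of the 11 were lower, where 6.98% of all genes were, and 8 did not pass. Those 3 were Icosl, the costimulatory ligand of ICOS (-0.78 ± 0.17, adjusted p = 0.00845), S1pr1 (-0.40 ± 0.12, adjusted p = 0.0263) and Cxcl12 (-0.65 ± 0.19, adjusted p = 0.0274), the chemokine of the dark zone.

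Cxcl13, the ligand of CXCR5, was at 347 to 400 CPM in the ear libraries and at 176 to 260 CPM in the dorsal libraries, a difference of 0.72 ± 0.11 (adjusted p = 0.000110). The controls were at 320.1 to 359 CPM. Genes listed as follicular dendritic cell markers were lower in 6 of 7 cases with dorsal imiquimod (median -0.89), where 27.6% of all genes were. With ear imiquimod they were lower in 1 of 7 (median -0.20), where 6.98% of all genes were. Their summed level was 1963 to 2523 CPM in the dorsal libraries, 3902.5 to 4273 in the ear libraries and 4312 to 4693 in the controls. Whole spleen does not show which cells these transcripts came from, and their part in the levels of the members was not tested.

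Of 11 class switch and hypermutation repair genes, which dividing cells of all types use as well, 1 was lower with dorsal imiquimod and 2 did not pass. The other 8 were higher, where 32.3% of all genes were, and the median of the list was 1.0. Examples were the mismatch repair gene Msh6 (1.16 ± 0.12, adjusted p = 3.03e-06), Apex2 (1.16 ± 0.12, adjusted p = 4.35e-06) and Xrcc6 (1.08 ± 0.12, adjusted p = 5.92e-06). With ear imiquimod 6 were higher, where 14.3% of all genes were, none was lower and 5 did not pass, with a median of 0.43. Among the 6 were Polh, the polymerase that writes A and T mutations (0.80 ± 0.17, adjusted p = 0.00659), and Ung, a uracil glycosylase of base excision repair (0.77 ± 0.20, adjusted p = 0.0167). With IL-23 no member of this list was called against vehicle by the 3 tools, or had an unadjusted p below 0.05 in edgeR.

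Markers of other cells moved beside the members. Their counts below stand against 32.3% of all genes higher and 27.6% lower with dorsal imiquimod, and 14.3% higher and 6.98% lower with ear imiquimod. Of 8 cell cycle markers 8 were higher with both imiquimod treatments, and their summed level was 342 to 628 CPM in the controls, 712 to 1984 in the ear libraries and 3521 to 4658 in the dorsal libraries. In the dorsal libraries S1pr2 and Nuggc overlapped the controls and Mybl1 was above them. Of 8 plasma cell markers 8 were higher with ear imiquimod, at 3131 to 4712 CPM in sum against 1251 to 1512, and with dorsal imiquimod 1 was higher and 1 lower, at 971 to 1521 CPM. Of 9 markers of mast cells and basophils, cells that can express Rgs13, 1 was higher with ear and 3 were higher and 1 lower with dorsal imiquimod. The 3 of 9 are close to the share of all genes. In sum these markers overlapped between the groups, at 52.8 to 66.8 CPM in the controls, 54.9 to 75.4 in the dorsal and 34.9 to 55.1 in the ear libraries. No marker of these 3 lists was at 0 in any library. NK cell markers were lower in 6 of 6 cases with dorsal and 2 of 6 with ear imiquimod, and endothelial markers in 3 of 5 with each. The endothelial count with dorsal imiquimod rests on 5 genes and is not read as apart from all genes. Erythroid markers were higher in 8 of 8 cases with dorsal imiquimod and in 0 with ear imiquimod (1 at an unadjusted p below 0.05, and 0 by DESeq2 and limma-voom). Their summed level was 663 to 845 CPM in the controls, 7993 to 13182 in the dorsal libraries and 411 to 2680 in the ear libraries. Pancreas markers summed to 290.2 CPM in 1 dorsal library and to at most 13.0 in the controls. The part of any of these cells in the members' levels was not tested.

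Of 10 B cell markers 1 was higher and 2 were lower with dorsal imiquimod (median -0.12), and 1 was higher and 3 were lower with ear imiquimod (median -0.10). None was at 0 in any library. They summed to 4429 to 4631 CPM in the controls and to 3590 to 4272 with dorsal imiquimod. The sums were 4120 to 4254 CPM with ear imiquimod and 4444 to 4817 with IL-23. The members were also expressed per 1000 counts of these 10 markers, and per 1000 counts of the cell cycle and of the T cell markers.

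On the B cell marker scale S1pr2 was at 1.43 to 2.04 in the controls, 2.85 to 11.1 with ear imiquimod and 1.81 to 2.68 with dorsal imiquimod. Gcsam was at 2.47 to 3.20 in the controls and at 1.06 to 1.5 with dorsal imiquimod, and Rgs13 at 0.421 to 0.457 and 0.0741 to 0.303. Fas was at 3.72 to 3.97 in the controls and at 2.15 to 3.08 with dorsal imiquimod. For Cxcr5 the dorsal libraries spanned 25.7 to 35.1 and the ear libraries 31.7 to 41.2, both below the 42.4 to 49.1 of the controls. When all libraries were scaled to these marker counts, the same 5 members passed with dorsal imiquimod as before, and S1pr2, Mybl1 and Nuggc passed with ear imiquimod (adjusted p from 0.00430 to 0.00958). This scaling, chosen after the values were seen, put the median of all genes at 0.21 with dorsal and 0.14 with ear imiquimod.

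The other 2 scales gave other orders of the groups. Cell cycle markers had themselves risen with ear imiquimod. Per 1000 of their counts S1pr2 was at 10.1 to 25.0 in the controls and at 8.86 to 23.0 with ear imiquimod, so that the groups overlapped. Mybl1 overlapped too, at 3.67 to 7.14 and 4.56 to 16.3, and so did Nuggc, at 0.371 to 2.95 and 1.77 to 5.10. On this scale the higher level of these 3 genes with ear imiquimod was thus not separate from the controls.

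Per 1000 T cell marker counts, which had fallen with dorsal imiquimod, Cxcr5 was at 151 to 223 in the controls and at 402 to 632 in the dorsal libraries. Fas was at 13.3 to 19.0 and 33.6 to 53.0, and Gcsam at 11.4 to 14.0 and 16.6 to 22.2. These 3 genes fell less than the T cell markers did, so they stood above the controls on this scale and below them in CPM and per B cell marker. The higher values here follow from the fall of the T cell markers and are not a rise of the genes. Rgs13 overlapped, at 1.63 to 2.21 and 1.07 to 4.74. Neither of these scales was tested.

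**Figure D4:**
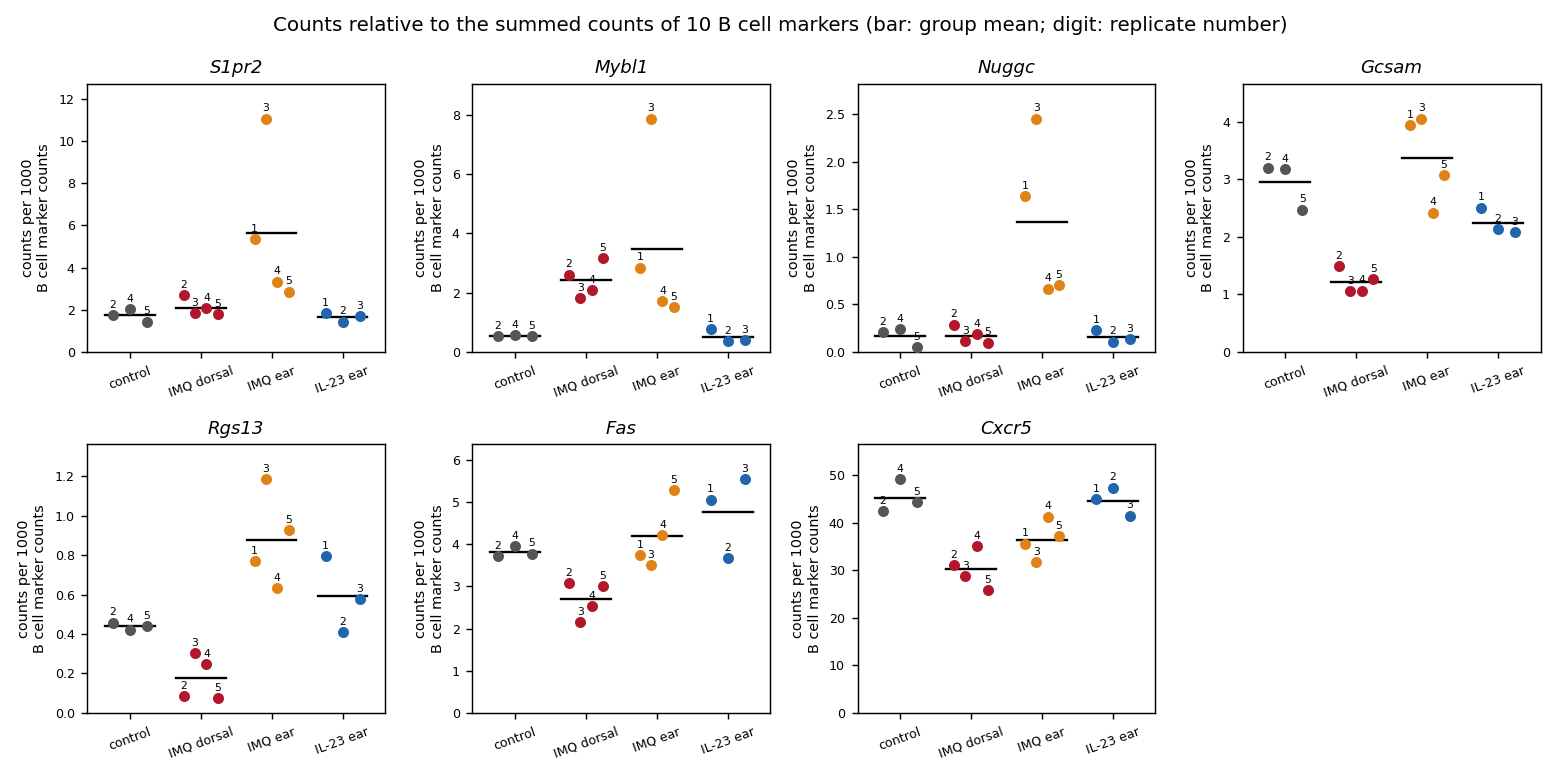
Counts of 7 members per 1000 summed counts of 10 B cell markers (y axis, linear, from 0) in each library (points, with replicate numbers) by group (x axis; IMQ is imiquimod), with the group mean as a bar. All 4 imiquimod-ear libraries stayed above the controls for S1pr2, Mybl1 and Nuggc, and all 4 imiquimod-dorsal libraries stayed below them for Gcsam, Rgs13, Fas and Cxcr5.

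The genes whose pattern was most like each member were found among 12743 genes by the root mean square difference, over the 14 libraries, of log2 CPM taken relative to the controls. For S1pr2 they were Tram2 (0.26), Txndc5 (0.32) and Xbp1 (0.32), and for Nuggc they were Eaf2 (0.60), Bhlha15 (0.66) and Mef2b (0.73). Mybl1 lay nearest to Sapcd2 (0.47), Reln (0.52) and Dnm3 (0.56), of which Sapcd2 changed by 1.87 with dorsal and 2.09 with ear imiquimod. Gcsam lay nearest to Havcr1 (0.24), Tmeff1 (0.24) and Il2ra (0.27), and Havcr1 changed by -1.34 with dorsal imiquimod (adjusted p = 3.22e-06), with a value of 0.24 for ear imiquimod that did not pass (adjusted p = 0.209). Rgs13 lay nearest to Dixdc1 (0.59), Nyx (0.60) and Pla2g4f (0.60), Fas to Tes (0.16), Tmem81 (0.16) and N4bp3 (0.17), and Cxcr5 to Osbpl5 (0.13), Arhgap24 (0.14) and Pxk (0.14). Il21 was too low to be ranked. Members themselves were passed over in this ranking.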

How the data were processed

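RNA of 14 spleens was poly(A) selected, prepared without strand information and sequenced from both ends, per the labels' protocols. The authors deposited 1 table of raw read counts per gene and library. Per the submitters' processing notes, which give no roles, the build was GRCm39 and the tools were featureCounts 2.0.3, DESeq2 1.38.3, HISAT2 2.2.1, fastp 0.23.2 and StringTie 2.2.1. How reads with several matches were counted is not given.

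Of 22740 entries, 624 assembled loci without a gene name (0.484% to 0.674% of counts) were left out. Entries without a symbol, and coordinates, were taken from GENCODE M39. The test was that of edgeR 4.0.16, run in R 4.3.3 (robust quasi-likelihood F test, TMM, filterByExpr with a minimum count of 10), with 1 coefficient per group and no covariate. The script was tested on simulated data. Alternatives were RLE factors, removal of 349 haemoglobin, immunoglobulin and T cell receptor genes, no filter, DESeq2 1.42.0 and limma-voom (limma 3.58.1). Further ones were a replicate block, leaving out each library, and scaling to B cell marker counts, which was chosen after the values were seen. Log2 CPM used a prior count of 2.

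All 8 members are named whatever their result; of each other list at most 3 called genes per comparison are named, by adjusted p, and for each member whose log2 CPM averaged 0 or more the 3 genes of most similar pattern. The members and lists were chosen with earlier results of these data known. 1 gene counted in the list of other germinal center B cell genes is not reported here by name.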

Additional observations from a re-analysis of the deposited data

Results flagged for a closer look

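In groups of 4 libraries, a library far from the other 3 was looked for in the genes named here, over 98 sets of 4 values, where chance alone gives about 1 in 20. There were 3 such values, all in the imiquimod-dorsal group and none in a member gene. Pdcd1 was at 7.35 CPM in imiquimod-dorsal 2, with the next library at 4.00 CPM. Bhlha15 was at 6.78 CPM in the same library, with the next at 4.33 CPM. Dnm3 was at 12.8 CPM in imiquimod-dorsal 3, with the next at 24.7 CPM.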

How the results depend on the processing

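Over 21 alternatives, 819 of 840 log2 fold changes of single members kept their direction and side of the threshold, 18 lost a call, 3 gained 1 and none called turned its sign. The number of members called with dorsal imiquimod stayed at 5 in every alternative and that with IL-23 against control at 0. With ear imiquimod against control it was 4, and 2 to 4 when 1 library was left out (2 without control 4, S1pr2 and Cxcr5 being lost). For IL-23-ear against imiquimod-ear it was 4, and 2 to 5 (2 without IL-23-ear 2), and for ear against dorsal imiquimod 6, and 5 to 6. Leaving out imiquimod-ear 3 moved a called value by over 1.5 times only for Mybl1.

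Same-numbered libraries of different groups did not deviate together (correlations of -0.24 to 0.18, against -0.23 to 0.22 for other numbers), and the highest correlation of 2 of 14 libraries was with their own number, so the numbers are not taken to pair mice. With the replicate number as a block, 0 members were called for ear imiquimod against control (from 4), with S1pr2 at 1.23, Mybl1 at 2.01, Nuggc at 2.65 and Cxcr5 at -0.34 (adjusted p from 0.0504 to 0.107). The block left the number of calls at 5, 0, 6 and 4 in the other comparisons; the cause was not tested. DESeq2 called 6 B cell markers with dorsal imiquimod (edgeR 3), and with ear imiquimod 2 follicular dendritic (edgeR 1) and 2 mast cell markers (edgeR 1, limma-voom 0). Depth limits Il21, with at most 57 counts in any library, and Nuggc, with at most 40 outside the imiquimod-ear group.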
